A study of Mus musculus with 6 samples.

Results

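The 9 genes of antibody-producing cells described here were measured in infarcted mouse hearts with and without the atypical chemokine receptor ACKR4, a scavenger of chemokines. They were Igkc, Ighm, Ighg2b, Ighg2c, Igha, Jchain, Mzb1, Cd79a and Cd79b. They were taken by symbol from a table of 54532 genes, all 9 were found, and all 9 were among the 14406 genes with enough reads to be tested. The set was chosen with its read counts in knockout and wild-type hearts already known, so the difference between genotypes in these 9 genes is described here without a test. RNA came from hearts of C57BL/6 mice, 8 to 10 weeks old, at day 14 after myocardial infarction (MI). One group was wild type (WT, 3 libraries) and the other was labelled ACKR4_KO, a knockout of Ackr4 (3 libraries), and all samples were from infarcted hearts. The labels give neither the design of the knockout allele, nor the piece of heart taken, nor whether a library is 1 animal or a pool, so the p-values below measure the spread between these samples, which may be technical.

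An antibody is built of heavy and light chains, each with a variable end that binds antigen and a constant end that sets its class. B cells carry the antibody in their membrane beside the signalling pair CD79A and CD79B. Plasma cells, their descendants, switch to secretion: they copy antibody genes at very high rates, join IgM and IgA into polymers with the J chain, and fold the protein with helpers such as MZB1. In bulk heart RNA, fewer plasma cells and less antibody RNA per cell cannot be told apart.

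Each library held 9422462 to 13910358 counted reads. Mitochondrially encoded genes took 15.8% to 21.4% of them. Ackr4 itself was read 165, 151 and 169 times in WT and 4, 1 and 12 times in ACKR4_KO, so every library followed its label. The biological coefficient of variation was 11.7% among WT and 26.7% among ACKR4_KO libraries. By edgeR's quasi-likelihood test, 0 of the 14406 genes (0%) passed an adjusted p of 0.05, and 1073 (7.45%) had an unadjusted p under 0.05. DESeq2 called 41 of the 17550 genes to which it gave an adjusted p (0.234%).

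The antibody genes did not separate the genotypes. They separated the ACKR4_KO libraries from one another. ACKR4_KO replicate 1 held the highest level of the 6 libraries for 7 of the 9 genes, where 14.6% of all tested genes have their highest level in that library. ACKR4_KO replicate 2 held the lowest level for 7 of the 9, against 25.6% of all tested genes. Both were true of 6 genes, the 5 immunoglobulin genes and Jchain, against 3.78% of all tested genes. Values below are CPM, the reads of a gene scaled to a common library size after TMM correction, and libraries are always named in the order of replicates 1, 2 and 3.

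**Figure D1:**
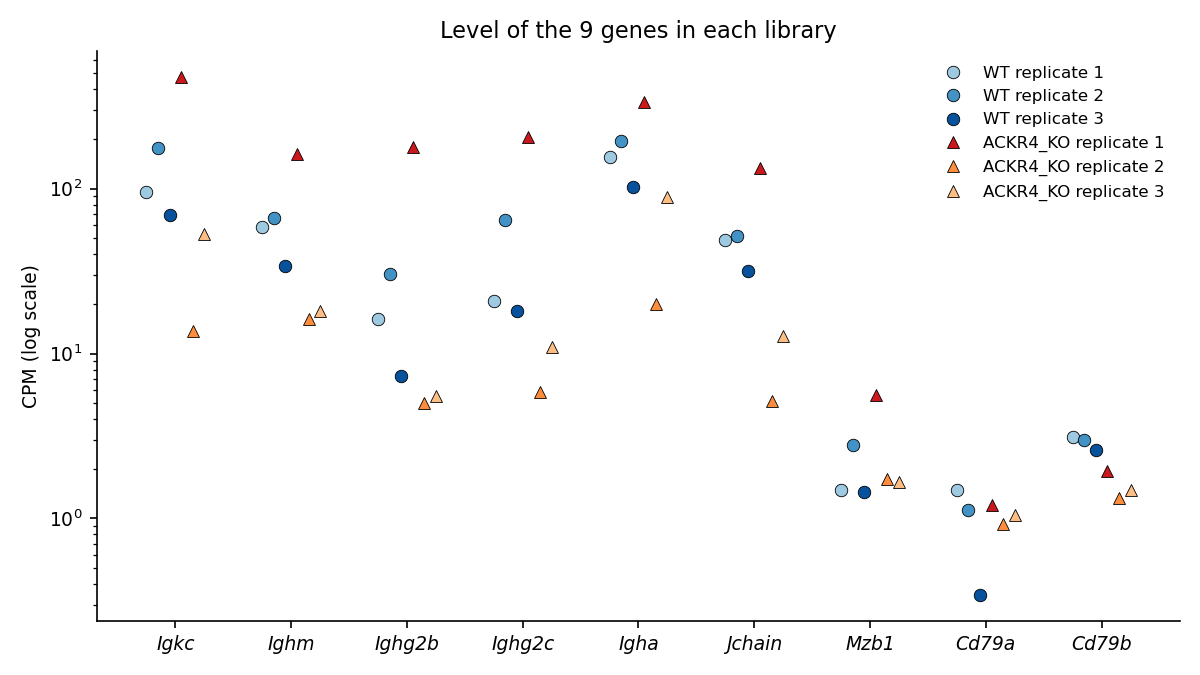
Level of each of the 9 genes in every library, in CPM on a log axis, with circles for WT and triangles for ACKR4_KO and 1 shade per replicate. For the 5 immunoglobulin genes and Jchain, ACKR4_KO replicate 1 is the top point and ACKR4_KO replicate 2 the bottom point, while for Cd79b all 3 triangles lie below all 3 circles.

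Igkc (ENSMUSG00000076609, chr6:70726435-70726966, plus strand of GRCm38) is the constant region of the kappa light chain, which most mouse antibodies carry. It had 1220, 1716 and 1000 reads in WT and 5921, 133 and 611 reads in ACKR4_KO. As CPM these were 94.9, 177 and 68.9 in WT and 478, 13.6 and 53.3 in ACKR4_KO. ACKR4_KO replicate 1 thus stood above every WT library, and the other knockout libraries stood below every WT library. The group means, 113 ± 56.2 and 182 ± 258 CPM (SD, n = 3 each), belonged to overlapping ranges, with a log2 fold change of 0.68 ± 1.24 (SE).

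The 4 heavy chain members lie on the minus strand of chromosome 12. Ighm (ENSMUSG00000076617, chr12:113418558-113422730) encodes the constant region of IgM, the class made first. Its level was 58.6, 66.2 and 34.0 CPM in WT and 163, 16.3 and 18.2 CPM in ACKR4_KO, again with replicate 1 of the knockout above the WT range and the others below it. The fitted log2 fold change was 0.33 ± 0.96 (SE).

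Ighg2b (ENSMUSG00000076613, chr12:113302965-113307933) and Ighg2c (ENSMUSG00000076612, chr12:113285325-113288932) encode the IgG2b and IgG2c heavy chains, made after class switching. Ighg2b was at 16.1, 30.2 and 7.30 CPM in WT and 179, 5.02 and 5.50 CPM in ACKR4_KO. Ighg2c was at 20.9, 64.2 and 18.1 CPM in WT and 205, 5.84 and 11.0 CPM in ACKR4_KO. These were the genes in which replicate 1 stood farthest above the WT mean, 10.03-fold for Ighg2b and 5.96-fold for Ighg2c. In replicates 2 and 3 both lay below the lowest WT library. Their log2 fold changes were 1.85 ± 1.51 and 1.12 ± 1.40 (SE), and both turned negative without that library, as given below.

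Igha (ENSMUSG00000095079, chr12:113254830-113260236) encodes the heavy chain of IgA, the class of mucosal secretions. It was at 155, 195 and 102 CPM in WT and at 338, 20.1 and 89.4 CPM in ACKR4_KO. The means of the genotypes were nearly the same, 151 ± 46.6 and 149 ± 167 CPM (SD, n = 3 each), although no knockout library lay within the WT range. The log2 fold change was -0.01 ± 0.94 (SE).

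Jchain (ENSMUSG00000067149, chr5:88519809-88527891, minus strand) encodes the small protein that links IgM and IgA into polymers. It was at 48.5, 51.7 and 31.5 CPM in WT and 133, 5.12 and 12.7 CPM in ACKR4_KO, with a log2 fold change of 0.21 ± 1.15 (SE). Per 100 reads of Igha and Ighm together, Jchain had 22.8, 19.8 and 23.1 reads in WT and 26.6, 14.1 and 11.9 reads in ACKR4_KO. The libraries poor in antibody RNA were thus also lower in Jchain relative to the chains it links. Mzb1 (ENSMUSG00000024353, chromosome 18), a chaperone cofactor of the endoplasmic reticulum in B and plasma cells, had few reads: 19, 27 and 21 in WT and 69, 17 and 19 in ACKR4_KO. As CPM these were 1.48, 2.78 and 1.45 in WT and 5.57, 1.74 and 1.66 in ACKR4_KO, so replicate 1 was again the highest, while replicates 2 and 3 lay inside the WT range.

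Cd79a (ENSMUSG00000003379, chr7:24897381-24902197, plus strand) and Cd79b (ENSMUSG00000040592, chr11:106311341-106314762, minus strand) encode the signalling chains of the B cell receptor, and they did not follow the antibody genes. Cd79a had 19, 11 and 5 reads in WT and 15, 9 and 12 in ACKR4_KO, or 1.48, 1.13 and 0.344 CPM and 1.21, 0.922 and 1.05 CPM. The knockout libraries lay inside the WT range, with a log2 fold change of 0.13 ± 0.54 (SE). The few reads limit how small a difference could be seen. Cd79b had 40, 29 and 38 reads in WT and 24, 13 and 17 in ACKR4_KO, or 3.11, 2.98 and 2.62 CPM and 1.94, 1.33 and 1.48 CPM. It was the one gene of the 9 whose groups did not overlap, and it was lower in the knockout (log2 fold change -0.86 ± 0.31, SE). Among all tested genes 7.63% were lower without overlap and 6.53% were higher without overlap, where the 9 genes had 1 and 0.

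None of the 9 genes passed the test over all genes, and since the set was chosen on this contrast, nothing is read from that count. DESeq2 also called 0 of the 9 and gave 3 of them, Ighm, Ighg2c and Jchain, no adjusted p. The fitted log2 fold change was above 0 for 7 of the 9 and below 0 for Igha and Cd79b, with a median of 0.33 beside 0.01 over all tested genes.

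These signs were not stable. With all 6 libraries, limma-voom gave 3 genes above 0 and 6 below, with a median of -0.45. Without ACKR4_KO replicate 1, the edgeR fit put 8 of the 9 log2 fold changes below 0, with a median of -1.61. Igkc then stood at -1.75 ± 0.71, Ighm at -1.61 ± 0.30 and Jchain at -2.28 ± 0.42 (log2 fold change ± SE). Ighg2b went to -1.75 ± 0.62, Ighg2c to -2.01 ± 0.72, Igha to -1.46 ± 0.67 and Mzb1 to -0.14 ± 0.45. Cd79a alone kept a value above 0, at 0.03 ± 0.65, and Cd79b stayed lower, at -1.03 ± 0.35. ACKR4_KO replicate 1 was singled out here as the highest library. For the immunoglobulin genes and Jchain, the other knockout libraries lay below every WT library. Their negative signs thus followed from that choice, and no decrease in the knockout is read from these values and their SE. Over all tested genes the median without that library was 0.00.

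**Figure D2:**
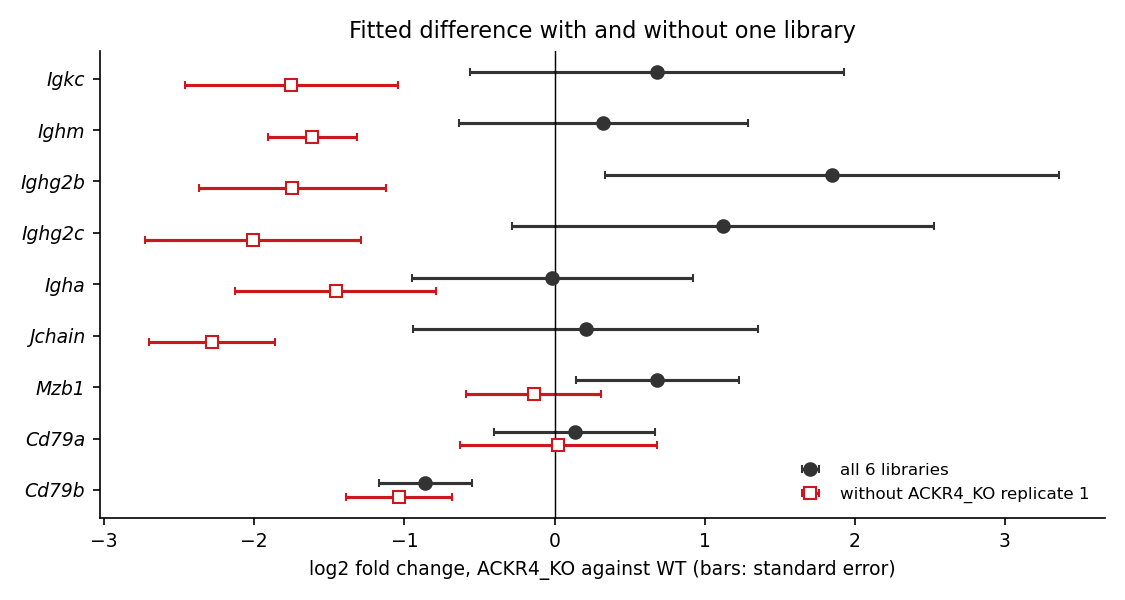
Fitted log2 fold change of ACKR4_KO against WT for each of the 9 genes, with bars for the standard error, from all 6 libraries (filled circles) and without ACKR4_KO replicate 1 (open squares). The 5 immunoglobulin genes and Jchain move to between -2.28 and -1.46, and Cd79a and Cd79b hardly move.

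The spread among the knockout libraries was wide for these genes beside the rest of the transcriptome. The highest ACKR4_KO library exceeded the lowest 35.1-fold for Igkc, 35.7-fold for Ighg2b, 35.1-fold for Ighg2c, 26.0-fold for Jchain, 16.8-fold for Igha and 10.03-fold for Ighm. The median of this ratio over all tested genes was 1.42, and 200 genes (1.39%) exceeded 10. A range at least as large as that of Igkc was found in 0.104% of tested genes, and for Ighm in 0.743%. Among WT libraries the same ratio was 2.56 for Igkc, 1.95 for Ighm, 4.14 for Ighg2b, 3.54 for Ighg2c, 1.91 for Igha and 1.64 for Jchain, beside a median of 1.22 over all tested genes. Several were thus also among the more variable genes in WT, with a range at least as large found in 0.764% of tested genes for Ighg2b, 1.04% for Ighg2c and 2.48% for Igkc. Cd79a varied 4.29-fold in WT, on 5 to 19 reads. Mzb1 had a knockout ratio of 3.36, Cd79b of 1.46 and Cd79a of 1.31, and 50.8% and 69.2% of tested genes ranged at least as widely as Cd79b and Cd79a.

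**Figure D3:**
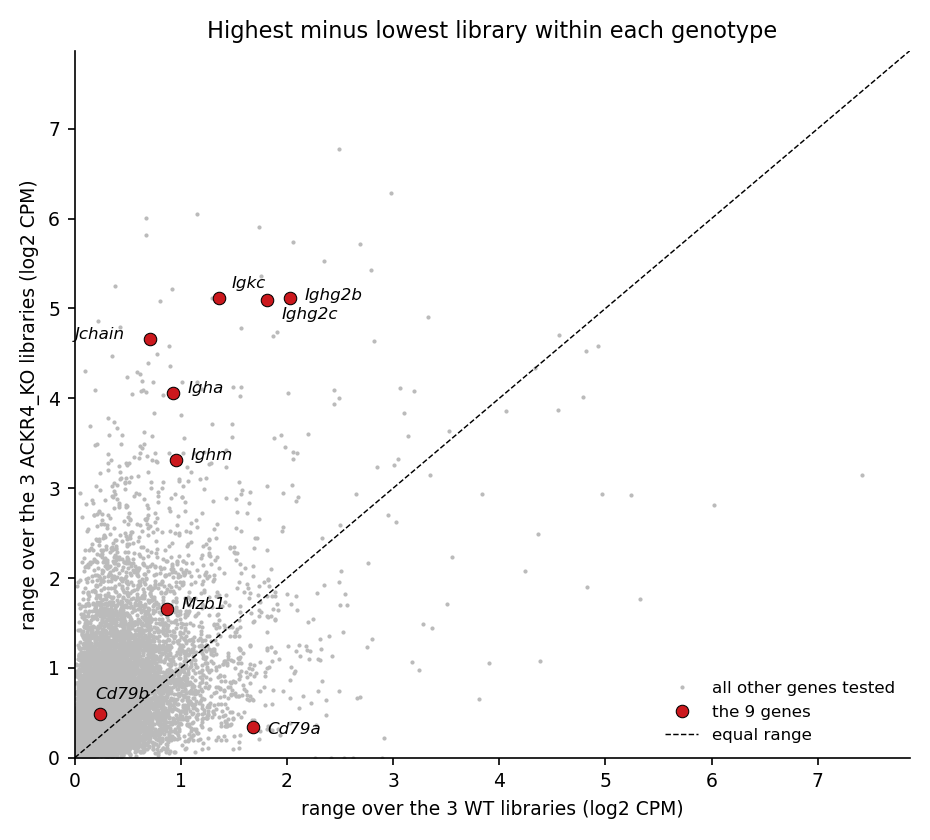
Difference between the highest and the lowest library within WT (horizontal axis) and within ACKR4_KO (vertical axis), in log2 CPM, for every tested gene (grey points) and the 9 genes (red, named). Igkc, Ighg2b, Ighg2c, Jchain, Igha and Ighm lie far above the line of equal range, at 3.31 to 5.12 on the vertical axis, and Cd79a and Cd79b lie under 0.50.

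The antibody genes varied together across the 6 libraries. Pearson's r of log2 CPM between pairs of Igkc, Ighm, Ighg2b, Ighg2c, Igha and Jchain was between 0.81 and 0.98, a description of 6 libraries in which ACKR4_KO replicate 1 is the extreme point, given without a test. Mzb1 correlated with them at 0.61 to 0.92. Cd79a reached 0.22 to 0.41 and Cd79b 0.30 to 0.65 with the same genes, and the pair Cd79a and Cd79b had an r of 0.00. Igkc accordingly had 30.5, 59.2 and 26.3 reads per read of Cd79b in WT and 247, 10.2 and 35.9 in ACKR4_KO.

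Levels can be ranked between genes once divided by exonic length, as RPKM (TMM-scaled CPM per kilobase of merged exons). In WT the order of means was Igkc at 213, Igha at 56.6, Ighm at 28.0, Ighg2c at 26.0, Jchain at 17.5, Ighg2b at 6.68, Cd79b at 2.03, Mzb1 at 1.56 and Cd79a at 0.676 RPKM. The WT ranges of Ighm, Ighg2c and Jchain overlapped each other, as did those of Cd79b and Mzb1, and the other neighbours were apart. The heavy chain order differed among the knockout libraries. In replicate 1, Ighg2c at 155 RPKM stood above Igha at 127 and Ighm at 86.6 RPKM. In replicate 2, Ighm at 8.64 RPKM stood just above Igha at 7.53 and Ighg2c at 4.40 RPKM. In replicate 3, Igha at 33.5 RPKM led Ighm at 9.63 and Ighg2c at 8.29 RPKM, as in the WT mean.

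The classes of antibody RNA were then compared within each library, as shares of reads on the heavy chain constant genes. IgA was the largest class in all WT libraries and IgG in 1 knockout library. The reads behind these shares numbered 3348, 3691 and 2427 in WT and 12251, 479 and 1443 in ACKR4_KO. Igha took 59.4%, 51.5% and 61.3% in WT and 34.1%, 40.9% and 71.0% in ACKR4_KO. The 4 IgG genes together took 17.7%, 30.9% and 17.6% in WT and 49.3%, 24.2% and 14.0% in ACKR4_KO. Exact (Clopper-Pearson) 95% intervals for the IgG share were 48.4% to 50.2% in replicate 1, 20.4% to 28.3% in replicate 2 and 12.2% to 15.9% in replicate 3 of ACKR4_KO, and they cover counting error only, since reads without molecular identifiers are not independent molecules. The excess of antibody RNA in ACKR4_KO replicate 1 was thus weighted toward IgG. The genotypes overlapped in IgM, IgA and IgG, with IgG at 22.0 ± 7.64% in WT and 29.2 ± 18.2% in ACKR4_KO (SD, n = 3 each).

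IgG1 took 3.02%, 5.72% and 2.22% of heavy chain reads in WT and 9.78%, 1.46% and 0.83% in ACKR4_KO. Its gene Ighg1 had 1198 reads in ACKR4_KO replicate 1 but 7 and 12 in replicates 2 and 3, beside 101, 211 and 54 in WT. IgM took 22.5%, 17.4% and 20.3% in WT and 16.5%, 33.2% and 14.4% in ACKR4_KO, so its share was highest in the library with the least antibody RNA. Ighd, the class that marks naive B cells, had between 6 and 20 reads in each library. Ighe, the IgE gene, had 0 reads in each of the 6 libraries, which allows up to 3 reads in each. Lambda light chains took 14.3%, 7.39% and 6.37% of light chain constant reads in WT and 3.33%, 6.34% and 3.93% in ACKR4_KO. The highest knockout share lay just below the lowest WT share, a gap far inside its exact 95% interval of 2.94% to 11.7%, which rests on 142 reads.

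**Figure D4:**
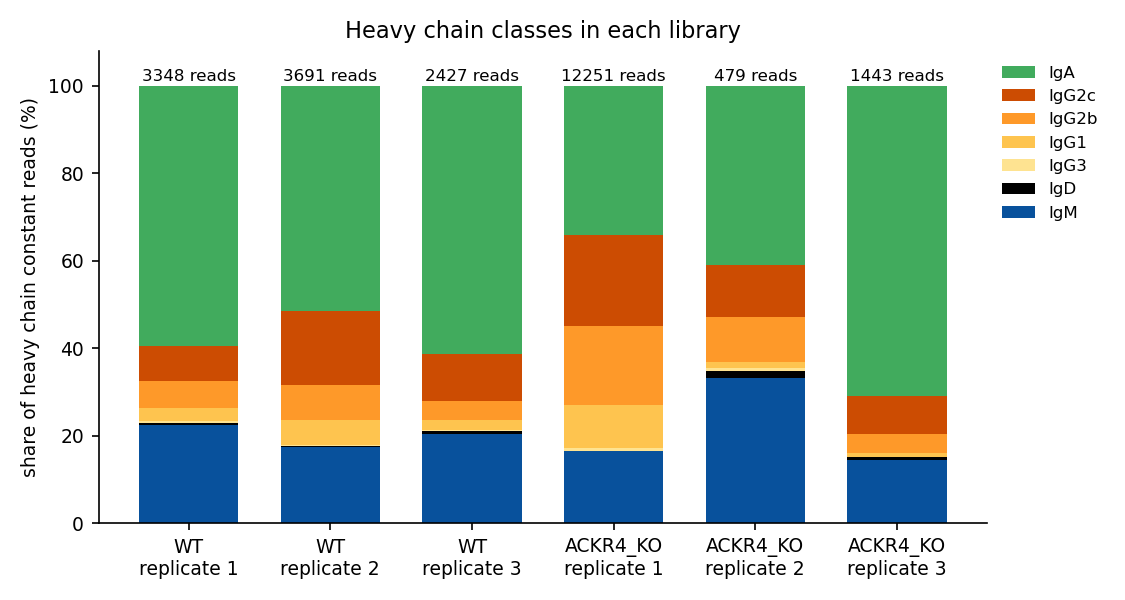
Share of each heavy chain class among reads on heavy chain constant genes, in percent, 1 bar per library with its number of such reads above it. IgA takes 34.1% of ACKR4_KO replicate 1 and 71.0% of ACKR4_KO replicate 3, and the 4 IgG parts together reach 49.3% in replicate 1.

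The IgG subclasses are close in sequence, which bears on how far their reads can be told apart. The first 120 bases of the first constant exon (CH1) of each are printed below 5′ to 3′ on the coding strand, with capitals at the positions where the 4 genes are not identical. They were read from the GENCODE M21 transcripts on GRCm38 and lie on the minus strand at chr12:113330404-113330523 (Ighg1), chr12:113307814-113307933 (Ighg2b), chr12:113288813-113288932 (Ighg2c) and chr12:113361113-113361232 (Ighg3).
Ighg1: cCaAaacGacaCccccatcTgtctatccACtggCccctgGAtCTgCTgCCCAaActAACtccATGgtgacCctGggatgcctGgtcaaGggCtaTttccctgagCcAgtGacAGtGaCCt
Ighg2b: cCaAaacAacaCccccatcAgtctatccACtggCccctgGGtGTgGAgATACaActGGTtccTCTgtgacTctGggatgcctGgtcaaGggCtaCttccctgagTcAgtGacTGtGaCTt
Ighg2c: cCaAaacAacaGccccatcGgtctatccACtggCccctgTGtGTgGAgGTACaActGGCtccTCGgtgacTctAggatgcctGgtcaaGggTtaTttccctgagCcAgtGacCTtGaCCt
Ighg3: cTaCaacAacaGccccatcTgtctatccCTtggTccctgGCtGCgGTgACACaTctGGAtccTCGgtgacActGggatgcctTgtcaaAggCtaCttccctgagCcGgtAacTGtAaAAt
All 4 share 81 of the 120 positions, and over the whole exon of 291 bases Ighg2b and Ighg2c are 87.6% identical. Exact matches over 50 bases, a window length chosen here, were rarer. Of all 50-base windows in the transcript, 5.49% for Ighg2c and 4.15% for Ighg2b also occur in another IgG gene, and 0% for Ighm and Igha. Between these 2 genes the shared windows were 5.49% of those of Ighg2c and 2.66% of those of Ighg2b. A small part of the reads of Ighg2b and Ighg2c could therefore not be told apart by exact sequence at this length. Whether such reads were left uncounted or given to either gene was not examined.

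Variable segments were counted separately in the same table. Of 218 annotated segments of the heavy, kappa and lambda loci, 177 had a read and 30 had a read in all 6 libraries. Together they had 1329, 1408 and 1095 reads in WT and 6302, 189 and 200 in ACKR4_KO, so they followed the constant genes into replicate 1. Per 100 constant region reads this was 27.9, 25.4 and 31.3 in WT and 34.3, 30.4 and 9.62 in ACKR4_KO. Replicate 3 was the library with few variable reads for its constant reads. Of the 27 segments that passed the filter on low counts, 22 were highest in ACKR4_KO replicate 1. By edgeR's quasi-likelihood test 0 of the 27 passed the adjusted threshold, and 0 had an unadjusted p under 0.05, where the shares of all tested genes were 0% and 7.45%. Their median log2 fold change was -0.04 with all libraries and -2.87 without ACKR4_KO replicate 1. Both medians are shaped by the filter, which asks for reads in several libraries, while ACKR4_KO replicates 2 and 3 had few variable reads. Segments read mainly in ACKR4_KO replicate 1, such as Igkv1-135 and Ighv1-74, did not pass it. The 27 segments are thus weighted toward those read in WT, and nothing is read from the 2 medians.

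The segment with most reads in each locus is shown by its last 300 bases, 5′ to 3′ on the coding strand, with capitals from the codon of the conserved cysteine to the 3′ end, where joining begins. These are reference sequences from the GENCODE M21 transcripts on GRCm38, not sequences read from the hearts. Their positions are chr6:67610209-67610508, plus strand, for Igkv1-135, chr12:115802648-115802947, minus strand, for Ighv1-74, and chr16:19085017-19085316, minus strand, for Iglv1.
Igkv1-135: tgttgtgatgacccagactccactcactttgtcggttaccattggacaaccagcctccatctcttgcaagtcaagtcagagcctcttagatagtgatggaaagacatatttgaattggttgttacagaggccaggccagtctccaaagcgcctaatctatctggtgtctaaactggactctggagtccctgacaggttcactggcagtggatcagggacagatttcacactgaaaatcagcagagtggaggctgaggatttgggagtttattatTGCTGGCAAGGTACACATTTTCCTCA
Ighv1-74: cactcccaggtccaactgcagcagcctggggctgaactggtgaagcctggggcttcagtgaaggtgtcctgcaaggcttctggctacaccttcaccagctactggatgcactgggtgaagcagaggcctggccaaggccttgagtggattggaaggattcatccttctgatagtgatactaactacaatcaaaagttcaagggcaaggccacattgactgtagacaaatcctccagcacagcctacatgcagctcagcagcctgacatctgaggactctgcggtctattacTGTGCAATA
Iglv1: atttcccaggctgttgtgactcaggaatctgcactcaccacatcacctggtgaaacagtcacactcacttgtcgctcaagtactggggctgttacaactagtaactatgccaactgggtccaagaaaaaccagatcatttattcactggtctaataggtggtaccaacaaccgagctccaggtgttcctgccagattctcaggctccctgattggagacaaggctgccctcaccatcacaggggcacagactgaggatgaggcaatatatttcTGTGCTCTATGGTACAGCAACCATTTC
Igkv1-135 had 40, 3 and 11 reads in WT and 492, 4 and 7 in ACKR4_KO. Ighv1-74 had 3, 2 and 14 reads in WT and 175, 0 and 0 in ACKR4_KO, where a count of 0 allows up to 3 reads. Iglv1 had 154, 67 and 46 reads in WT and 216, 5 and 7 in ACKR4_KO. The kappa and heavy segments owed their rank to ACKR4_KO replicate 1, whereas Iglv1 was also well read in WT replicate 1.

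Of the other leading segments, all but Iglv2 were also highest in ACKR4_KO replicate 1. Segments were ranked by reads summed over all libraries, and that library held 6302 of the 10523 variable reads. Its lead in these segments was therefore largely set by the ranking. Ighv1-26 had 22, 29 and 3 reads in WT and 122, 4 and 10 in ACKR4_KO, and Ighv6-3 had 29, 6 and 9 and 127, 0 and 2. Igkv10-96 had 22, 21 and 33 reads in WT and 201, 19 and 3 in ACKR4_KO. Igkv1-117 was spread more evenly, with 49, 54 and 49 reads in WT and 122, 3 and 13 in ACKR4_KO. In the lambda locus, Iglv2 had 47, 41 and 2 reads in WT and 14, 0 and 3 in ACKR4_KO, and Iglv3 had 1, 9 and 6 and 41, 1 and 3.

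With the heavy, kappa and lambda loci pooled, no segment took more than 16.4% of the variable reads of a library. The leading segment took 11.6% of variable reads in WT replicate 1 (Iglv1), 5.33% in replicate 2 (Igkv15-103) and 4.47% in replicate 3 (Igkv1-117). In ACKR4_KO it took 7.81% in replicate 1 (Igkv1-135), 16.4% in replicate 2 (Ighv1-54, 31 reads) and 6.5% in replicate 3 (Igkv1-117). Heavy segments held 40.2% of the variable reads of ACKR4_KO replicate 2, so Ighv1-54 took a larger share of its heavy variable reads alone. At a common depth of 189 variable reads, 63.5, 69.6 and 76.3 segments were expected to be seen in the WT libraries and 79.6, 52.0 and 70.9 in the ACKR4_KO libraries. Replicate 1 of ACKR4_KO, with the most antibody RNA, had the most segments by this count, and replicate 2 the fewest. By the inverse Simpson index, an effective number of segments, WT replicate 3 stood at 57.5 and ACKR4_KO replicate 1 at 54.1, so the order at the top depended on the measure. Any pair of libraries had 32.3% to 57.5% of segment usage in common.

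The remaining genes of the pathway were taken from lists written for B cells, plasma cells, antibody secretion, B cell survival and homing, and antibody receptors. In none of them did a gene pass edgeR's adjusted threshold over all genes, where the share of all tested genes was 0%. Of the 8 other constant region genes 5 were tested, with a median log2 fold change of -0.56. The highest was Ighg1 at 7.86, 21.7 and 3.72 CPM in WT and 96.8, 0.717 and 1.05 CPM in ACKR4_KO. The lambda constant gene Iglc1 was at 14.2, 3.81 and 2.96 CPM in WT and 9.37, 0.615 and 0.698 CPM in ACKR4_KO. Without ACKR4_KO replicate 1 the median of these 5 was -2.45, and without WT replicate 2 it was 1.00.

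As a list, B cell genes did not share the wide spread of the antibody genes, although low values in ACKR4_KO replicate 2 were partly shared. Of 26 listed, 16 were tested, 0 had an unadjusted p under 0.05, and their median log2 fold change was -0.18. ACKR4_KO replicate 1 was the highest library for 3 of the 16, beside 14.6% of all tested genes. ACKR4_KO replicate 2 was the lowest for 7 of the 16, beside 25.6% of all tested genes. The summed level of the list was 122, 124 and 140 CPM in WT and 118, 91.2 and 125 CPM in ACKR4_KO. A large part of these sums came from Ebf1, which is not specific to B cells. Ebf1, a transcription factor of early B cells that stromal cells also express, was at 38.2 ± 4.23 CPM among WT libraries and 33.1 ± 2.17 CPM in the knockout (SD, n = 3 each), and Cd37, a tetraspanin of mature B cells, at 8.61 ± 1.92 and 7.68 ± 3.11 CPM. Ms4a1, which encodes the B cell surface protein CD20, was barely detected, with 7, 8 and 10 reads in WT and 10, 7 and 2 in ACKR4_KO. It was under the filter on low counts and was chosen for mention after its values were seen.

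Plasma cell genes other than the members had a median log2 fold change of 0.01 over 17 tested of 21 listed. Their summed level was 489, 510 and 493 CPM in WT and 484, 404 and 433 CPM in ACKR4_KO, led by genes that other secreting cells also use. Txndc5, a disulfide isomerase, was at 158 ± 3.29 CPM among WT libraries and 128 ± 37.1 CPM in the knockout, and Xbp1, the transcription factor of the secretory program, at 102 ± 9.25 and 103 ± 31.0 CPM (SD, n = 3 each). Sdc1, which encodes the plasma cell surface protein CD138 and is also made by epithelium, was at 57.5, 67.4 and 58.4 CPM in WT and 38.4, 20.8 and 40.6 CPM in ACKR4_KO. Its groups did not overlap, it was the 1 gene of the list with an unadjusted p under 0.05, and its adjusted p by edgeR was 0.606. Of all tested genes 7.45% had such a p and 7.63% were lower without overlap, so 1 of 17 is near the background. Sdc1 was not high in ACKR4_KO replicate 1. Pou2af1, a B cell coactivator with few reads, did follow the antibody genes, at 1.24, 1.23 and 1.10 CPM in WT and 2.75, 0.410 and 0.524 CPM in ACKR4_KO. It was chosen after its values were seen.

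The machinery for folding and exporting antibodies is shared with every secreting cell. All 23 genes listed were tested, with a median log2 fold change of 0.07. Hspa5, the chaperone that holds free heavy chains, was at 568, 550 and 454 CPM in WT and 672, 813 and 379 CPM in ACKR4_KO. Its highest library was the one with the least antibody RNA. An unadjusted p under 0.05 was found for 2 genes, both with higher values in ACKR4_KO, where 3.81% of all tested genes did so. They were Herpud1, of the pathway that degrades misfolded proteins (log2 fold change 0.45 ± 0.19, SE, edgeR adjusted p = 0.661), and Manf, a secreted stress protein (0.45, edgeR adjusted p = 0.606), both chosen after their values were seen.

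Genes for the survival and homing of B and plasma cells mostly had lower values in ACKR4_KO, without passing the test. Of 24 listed, 13 were tested, 10 had a log2 fold change below 0 and the median was -0.39. An unadjusted p under 0.05 was found for 5, all lower in ACKR4_KO, where 3.64% of all tested genes did so. Tnfsf13b, which encodes the B cell survival factor BAFF, was at 4.82, 4.84 and 4.20 CPM in WT and 2.83, 2.87 and 2.18 CPM in ACKR4_KO, without overlap (edgeR adjusted p = 0.635). Il6, a cytokine that supports plasma cells, was at 2.18, 2.16 and 1.86 CPM in WT and 0.646, 1.02 and 1.13 CPM in ACKR4_KO (edgeR adjusted p = 0.661). Cxcl12, the chemokine that holds plasma cells in their niches, was at 400 ± 37.9 CPM among WT libraries and 295 ± 70.1 CPM in the knockout, and S1pr1, which directs their exit, at 156 ± 32.7 and 174 ± 77.0 CPM (SD, n = 3 each). Tnfsf13b and Il6 were chosen after their values were seen.

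Receptors that bind antibody were tested in 10 of 15 cases, with 0 unadjusted p under 0.05 and a median of -0.15. C1qa, a subunit of the complement protein that binds IgG and IgM, was at 236 ± 28.2 CPM among WT libraries and 229 ± 54.1 CPM in the knockout (SD, n = 3 each). Fcgrt, the receptor that protects IgG from breakdown, was at 133 ± 9.35 and 118 ± 5.57 CPM. Pigr, which carries polymeric IgA across epithelium, had at most 2 reads in any library.

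Markers of other cell types were set beside the antibody genes, since a heart sample can carry neighbouring tissue. The 9 genes summed to 400, 591 and 267 CPM in WT and 1506, 70.0 and 194 CPM in ACKR4_KO. Mesothelium markers summed to 48.1, 27.3 and 17.0 CPM in WT and 62.6, 26.2 and 14.7 CPM in ACKR4_KO. Of the 6, 4 were highest in ACKR4_KO replicate 1, where 14.6% of all tested genes had their highest level. Upk3b, a defining marker of mesothelium, was at 18.9, 5.86 and 2.00 CPM in WT and 19.5, 3.07 and 1.48 CPM in ACKR4_KO. It was thus high in the same knockout library as the antibody genes and equally high in WT replicate 1. Adipoq, the defining adipocyte gene, was at 25.7, 5.66 and 1.38 CPM in WT and 12.4, 1.54 and 0.698 CPM in ACKR4_KO. The adipocyte list as a whole summed to 798 to 1159 CPM in WT and 693 to 949 CPM in ACKR4_KO, but its genes differed. Pearson's r to the mean log2 deviation of the 9 genes was -0.79 for Fabp4. It was 0.78 for Plin1, 0.72 for Adipoq, 0.72 for Retn, 0.60 for Cfd and 0.56 for Cidec. The 6 tested genes of the list had a median log2 fold change of -1.18, and of -3.38 without ACKR4_KO replicate 1.

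Of the 9 lymphoid stroma and lymphatic markers listed, 3 were tested, namely Cxcl13 and the lymphatic endothelial genes Lyve1 and Prox1. All 3 were highest in ACKR4_KO replicate 1, beside 14.6% of all tested genes. The sums of the list were 80.9 to 99.2 CPM in WT and 62.7 to 149 CPM in ACKR4_KO, and Cxcl13 was a small part of them. Cxcl13, the chemokine that draws B cells into follicles, was at 1.17, 1.75 and 1.03 CPM in WT and 9.37, 0.820 and 0 CPM in ACKR4_KO. The thymus genes Rag1, Rag2 and Dntt were at 0 in every library. Lung epithelium markers summed to 44.1 to 271 CPM in WT and 1.05 to 2.15 CPM in ACKR4_KO, with 7 of the 11 at 0 in each knockout library, and skeletal muscle markers to 4.12 to 135 CPM and 2.67 to 10.1 CPM. T cell markers summed to 62.9, 65.9 and 55.6 CPM in WT and 38.8, 30.0 and 51.4 CPM in ACKR4_KO. The high antibody level of ACKR4_KO replicate 1 thus came with the highest sums of the mesothelium list and of the lymphoid stroma and lymphatic list. The thymus and neutrophil lists also had their highest sums in that library, each slightly above the highest WT sum. Lung and T cell markers did not sum above WT there. Between the genotypes, all 7 tested lung markers and 8 of 12 tested T cell markers were lower in ACKR4_KO without overlap. The share of all tested genes was 7.63%. The part that carried tissue or cell content had in the antibody levels was not tested. Nor was its part in the genes lower in ACKR4_KO, such as Cd79b, Sdc1, Tnfsf13b and Il6.

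**Figure D5:**
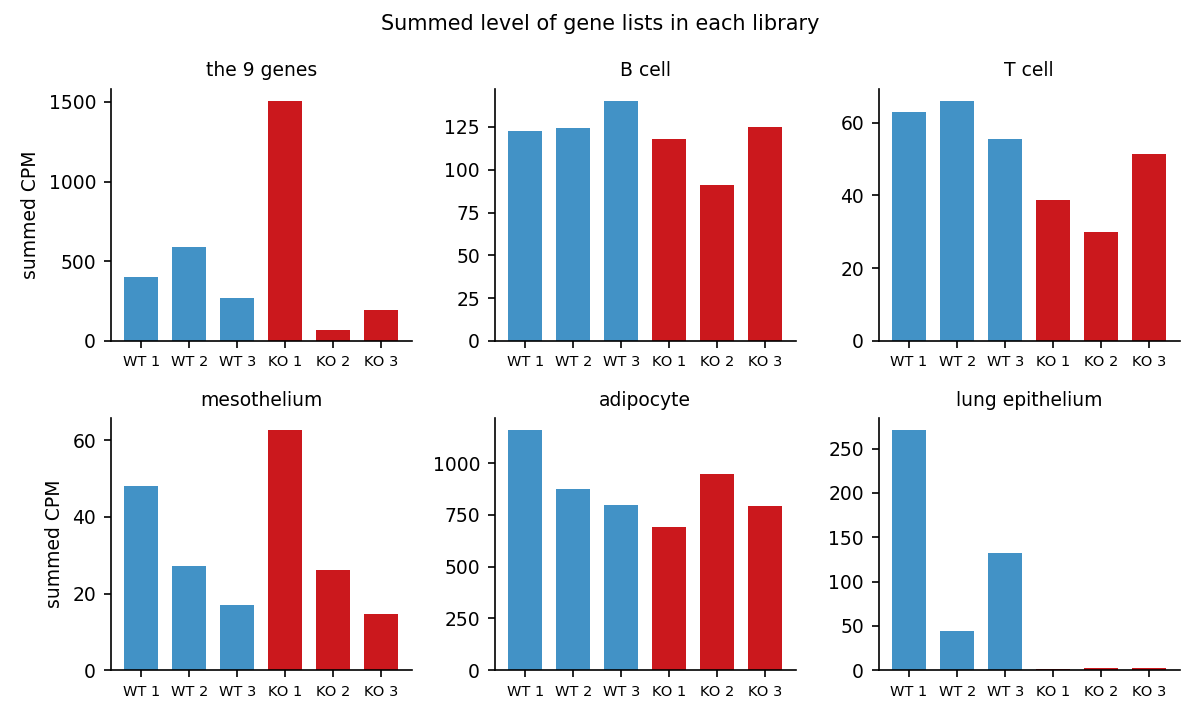
Summed CPM of the 9 genes and of the B cell, T cell, mesothelium, adipocyte and lung epithelium lists in each library, with WT in blue, ACKR4_KO in red and each panel on its own scale from 0. The panel of the 9 genes peaks at 1506 CPM in ACKR4_KO replicate 1, mesothelium peaks in the same library at 62.6 CPM, and B cell genes stay between 91.2 and 140 CPM.

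The genes most like the antibody genes were sought among 12827 tested genes outside the immunoglobulin loci with a mean of at least 2 CPM, by Pearson's r over the 6 libraries to the mean log2 deviation of the 9 genes. In 69 of them r exceeded 0.9, and the 5 highest were Eefsec (0.992), Adgrd1 (0.983), Jrk (0.982), Slc7a6os (0.979) and Dixdc1 (0.975). Eefsec, the elongation factor for selenocysteine, was at 6.15, 6.69 and 5.65 CPM in WT and 8.88, 4.41 and 5.32 CPM in ACKR4_KO. It had the order of libraries of the antibody genes on a far smaller scale, with a 2.02-fold knockout range. With 6 libraries and so many genes these values are a description of likeness only.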

How the data were processed

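Bulk RNA from heart was sequenced in 3 WT and 3 ACKR4_KO libraries, with groups taken from the sample descriptions. The authors deposited raw counts, whole reads per Ensembl gene, made per the submitters' processing notes with CASAVA 1.8.2, HISAT2 and HTSeq 0.6.0 on mm10. Annotation release and strand setting are not stated in any source used here. Reads of overlapping antisense genes and of near-identical immunoglobulin genes may therefore not be told apart. Symbols were found for 54409 of 54532 rows. Coordinates and exonic lengths came from GENCODE M21 on GRCm38, the assembly of mm10.

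Genes were filtered with filterByExpr, scaled by TMM (factors 0.891 to 1.05) and fitted with the robust quasi-likelihood test of edgeR 4.0.16 in R 4.3.3, two-sided, with Benjamini-Hochberg adjustment over 14406 genes at 0.05. CPM used the TMM-scaled totals. The fit was tested on simulated data. DESeq2 1.42.0 and limma-voom (limma 3.58.1), other scalings and filters, a replicate block and each library left out in turn were alternatives. No source used here says that replicate numbers pair the samples, so the main fit did not pair them.

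The members and lists were chosen with earlier results of these data known. Named were Ackr4, the 9 members, up to 4 of the genes with the highest mean level per list, up to 3 variable segments per locus with most reads, and the 5 genes most like the members. Others were chosen after their values were seen. One listed gene is not reported here.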

Additional observations from a re-analysis of the deposited data

How the results depend on the processing

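The count of genes past the adjusted threshold was 0 by edgeR, 41 with DESeq2, 24 without a filter on low counts, and 0 to 1 with a library left out. With the replicate number as a replicate block it was 6, but the numbers share no stated origin. Deviations of same-numbered samples correlated at 0.067, 0.053 and 0.125. The same-numbered WT sample was the best match for ACKR4_KO replicates 1 and 3, whereas ACKR4_KO replicate 2 correlated best with WT replicate 1 (0.063). Such low values do not settle whether the numbers pair the samples. In this replicate block and with limma-voom, 3 members were higher and 6 lower, against 7 and 2, with medians of -0.46 and -0.45. With a library left out, the median log2 fold change of the members lay between -1.61 (without ACKR4_KO replicate 1) and 0.79, that of the other constant genes between -2.45 and 1.00, and the log2 ratio of summed constant region CPM between -1.69 and 1.08. The plasma cell median was -0.080 without scaling factors, -0.18 with limma-voom, -0.11 with the stricter filter, -0.17 with the replicate block, and -0.24 to 0.041 with a library left out. The log2 fold change of Cd79b lay between -1.03 and -0.75 in all 15 alternatives. Its groups do not overlap, so leaving out a library could not turn its sign. The other settings refit the same libraries, and nothing is read from its stable direction. Cd79a was not tested under the stricter filter. Depth limits Mzb1, Cd79a and Cd79b, with 5 to 69 reads a library, and the shares in ACKR4_KO replicate 2, from 479 heavy chain reads.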
